A study of Mus musculus with 2 samples.

Results

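The genes described here are 30 genes of cholesterol synthesis and transport, chosen by symbol from the 28692 genes of the deposited tables and followed through the cell classes of the mouse lateral hypothalamic area. They comprise 18 enzymes that build cholesterol, 4 genes of sterol sensing (Insig1, Srebf1, Srebf2 and Scap), 4 of lipoprotein supply, efflux and uptake (Apoe, Abca1, Abcg1 and Lrp1), 3 of storage and release from late endosomes (Soat1, Npc1 and Npc2), and Cyp46a1, which turns cholesterol over. Cells came from freshly dissected, untreated brain tissue of 5 C57BL/6 littermates aged 30 days and were profiled as droplet 3′ libraries (10x Chromium, v2 chemistry). One library, labelled male, pools 3 animals and the other, labelled female, pools 2. Each value therefore stands for a pool, with n = 2 libraries, and the spread between animals cannot be given. The libraries go against their sex labels: the library labelled male held 20641 UMIs of Xist and 0 of Y-linked genes, and the library labelled female held 30 and 7618. They are therefore called by their labels only, and no comparison of sexes is made. A UMI, a unique molecular identifier, marks 1 captured RNA molecule.

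In the brain cholesterol is made locally, because plasma lipoproteins do not cross the blood-brain barrier. Acetyl units are joined to mevalonate, mevalonate is turned into isoprenoids and squalene, and squalene is closed into lanosterol and trimmed to cholesterol, while SREBP transcription factors, held in the endoplasmic reticulum by INSIG and SCAP when sterol is plentiful, drive most of these genes. Oligodendrocytes need cholesterol for myelin, and astrocytes pack it with apolipoprotein E for uptake by other cells.

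The promoters of 6 enzymes are shown because SREBP proteins act at sterol regulatory elements in promoters. The CCAAT box, also marked, is a different motif. They are the enzymes with a RefSeq window that had the largest log2 fold changes between newly formed cells and either progenitors or mature oligodendrocyte-like cells, and Fdft1, which ranked 4 in size, is left out for want of a window. Each line holds the 250 bases before the annotated start of a gene, from RefSeq on GRCm38.p6, 5′ to 3′ along the gene's strand. In the annotation GENCODE M21 the genes Lss, Idi1, Cyp51 and Acat2 start inside the printed stretch. The marked boxes of Idi1 and Cyp51 lie past those starts. Capitals mark the sterol regulatory element TCACNCCAC and the CCAAT box, which is written ATTGG where it lies on the opposite strand.
Hmgcs1 (chr13:119690101-119690350, forward strand): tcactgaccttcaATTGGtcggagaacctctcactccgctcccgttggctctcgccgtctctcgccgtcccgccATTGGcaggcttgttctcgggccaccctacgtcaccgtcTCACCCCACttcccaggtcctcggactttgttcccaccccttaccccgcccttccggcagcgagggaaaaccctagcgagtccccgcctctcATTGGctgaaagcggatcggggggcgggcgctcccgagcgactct
Lss (chr10:76531355-76531604, forward strand): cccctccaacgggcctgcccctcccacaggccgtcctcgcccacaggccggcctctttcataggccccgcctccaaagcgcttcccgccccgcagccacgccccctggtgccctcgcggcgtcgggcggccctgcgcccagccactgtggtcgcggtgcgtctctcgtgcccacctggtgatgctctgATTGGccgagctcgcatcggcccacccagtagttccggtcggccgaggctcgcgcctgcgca
Idi1 (chr13:8885356-8885605, forward strand): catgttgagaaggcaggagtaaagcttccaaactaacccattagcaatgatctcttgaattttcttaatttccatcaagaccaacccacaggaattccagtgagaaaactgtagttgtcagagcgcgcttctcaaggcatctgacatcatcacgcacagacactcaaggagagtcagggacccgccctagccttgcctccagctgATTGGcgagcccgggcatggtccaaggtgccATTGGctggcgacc
Mvd (chr8:122443423-122443672, reverse strand): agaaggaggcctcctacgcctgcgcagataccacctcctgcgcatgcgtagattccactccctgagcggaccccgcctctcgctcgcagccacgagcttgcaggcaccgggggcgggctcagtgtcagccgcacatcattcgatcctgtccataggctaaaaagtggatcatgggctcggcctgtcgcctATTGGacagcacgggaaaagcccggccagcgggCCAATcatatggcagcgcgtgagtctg
Cyp51 (chr5:4104698-4104947, reverse strand): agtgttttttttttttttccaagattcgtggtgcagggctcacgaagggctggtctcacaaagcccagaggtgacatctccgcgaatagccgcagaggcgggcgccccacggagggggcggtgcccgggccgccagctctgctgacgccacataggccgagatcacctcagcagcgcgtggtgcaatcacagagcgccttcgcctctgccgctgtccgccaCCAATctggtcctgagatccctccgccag
Acat2 (chr17:12960726-12960975, reverse strand): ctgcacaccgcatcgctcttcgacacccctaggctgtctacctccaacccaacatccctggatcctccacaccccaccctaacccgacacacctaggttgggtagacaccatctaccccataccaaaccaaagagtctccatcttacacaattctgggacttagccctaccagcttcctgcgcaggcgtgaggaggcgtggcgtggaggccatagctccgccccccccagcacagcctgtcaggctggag

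Hmgcs1, which encodes HMG-CoA synthase, held the sterol regulatory element 137 bases before its start and 3 CCAAT boxes in the printed stretch. The CCAAT box lay 62 bases before the start in Lss, 45 and 14 bases before it in Idi1, 60 and 27 bases before it in Mvd, and 29 bases before it in Cyp51, while the stretch of Acat2 held neither motif. Over windows of 250 bases before to 50 after the start, searched on both strands, CCAAT was found in 14 of the 15 enzymes with a window, all but Acat2. This share of 93.3% compares with 41.1% of 27025 genes with a window and with 42.1% of those that also entered the test across classes. TCACNCCAC was found in 1 of the 15 enzymes, Hmgcs1, and in 1.44% of the 27025 genes. The GC box GGGCGG was found in 14 of the 15 enzymes, against 38.2% of all genes and 71.4% of the tested ones, and the E-box CACGTG in 3, against 8.09% and 11.7%. A match of letters is a description and was not tested as a site. RefSeq windows were matched for 25 of the 30 genes, and Fdps, Fdft1, Sqle, Abcg1 and Npc1 are named only.

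After filtering, 6706 cells remained of 7232 barcodes, 3186 in the library labelled male and 3520 in the library labelled female, with medians of 5718 and 6289 UMIs per barcode before filtering. The libraries shared 18 barcodes, 17 of them among the kept cells. Clusters were found without the 30 genes and named "-like" from marker lists alone. In the 2 libraries, labelled male first, they gave 76 and 88 OPC-like cells (oligodendrocyte progenitors), 74 and 104 newly formed oligodendrocyte-like cells, 609 and 595 mature oligodendrocyte-like cells, 118 and 185 astrocyte-like cells, 70 and 39 microglia-like cells, and 2042 and 2270 neuron-like cells. The vascular classes held 144 and 149 cells (endothelial-like), 11 and 35 (mural-like) and 23 and 33 (fibroblast-like), with 19 and 22 cells left unnamed. Median UMIs per cell differed between classes, and were 2276 and 2425 in OPC-like, 2260 and 2543 in astrocyte-like and 7722 and 8124 in neuron-like cells. Counts were summed per library and class, and levels are given as normalised CPM (a gene's UMIs relative to the library size after TMM scaling), as the value of the library labelled male and then that of the library labelled female. Levels of 1 gene are compared between classes and not between genes, because 3′ capture differs between genes. A gene was called higher or lower at a Benjamini-Hochberg adjusted p under 0.05 in edgeR's quasi-likelihood test across all 9693 genes tested. Tm7sf2, a sterol reductase, was too low for this test, with 14.6 and 26.9 normalised CPM in astrocyte-like cells and 6.37 and 6.75 in neuron-like cells, and 29 genes entered it. Of the 30 genes, 5 overlap a protein-coding gene on the opposite strand (Mvd, Fdft1, Cyp51, Srebf1 and Npc1) and 2 on the same strand (Fdps and Tm7sf2), so that their counts are uncertain where reads fall in the shared part.

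**Figure D1:**
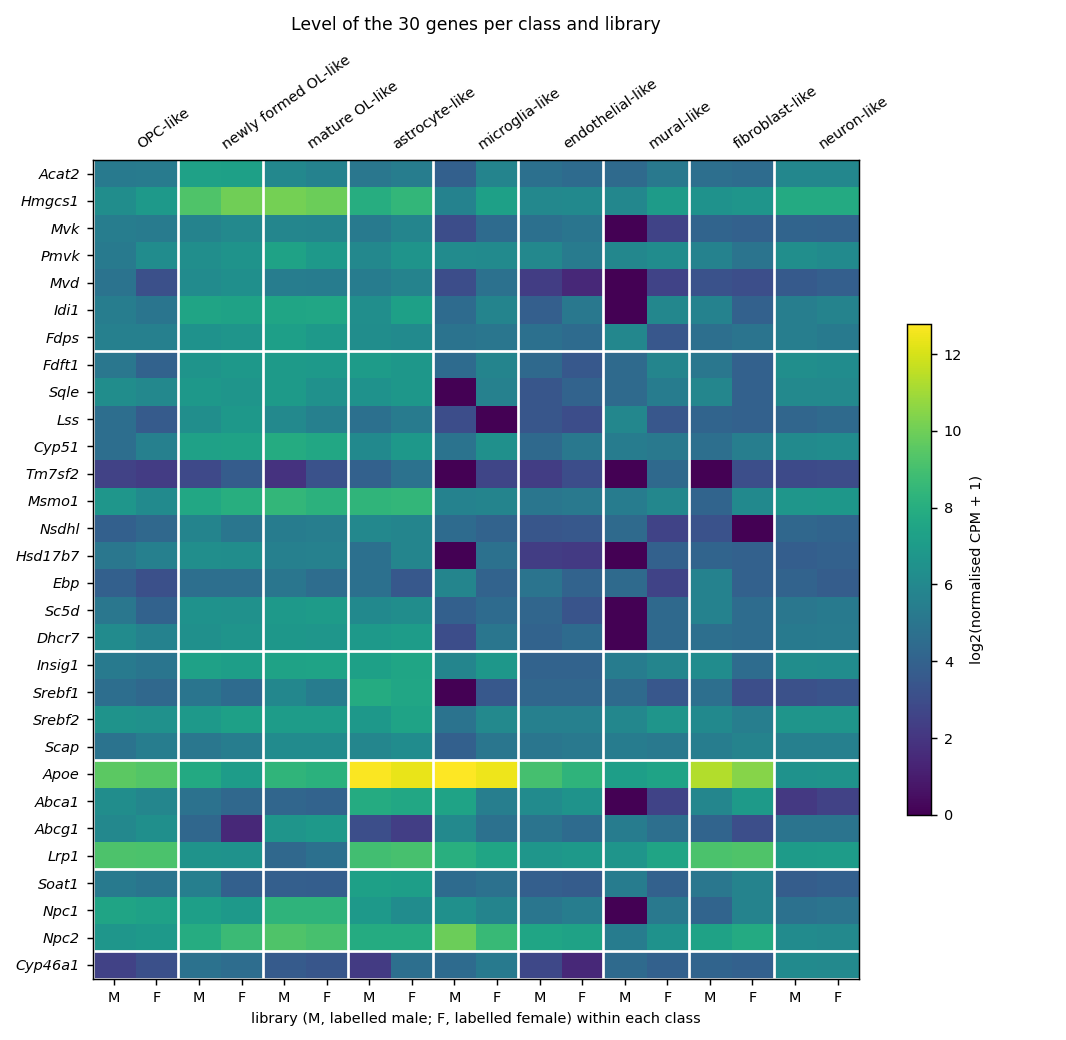
Levels of the 30 genes in 9 cell classes, as log2(normalised CPM + 1), with 1 column per library (M, labelled male; F, labelled female) and white lines between roles and classes. The enzymes in the upper rows are bright in the newly formed and mature oligodendrocyte-like columns, Apoe is bright in the astrocyte-like and microglia-like columns, and Cyp46a1 is brightest in the neuron-like columns.

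Summed over the 18 enzymes, transcript levels were highest in the oligodendrocyte lineage after the progenitor stage and low in the vascular and microglia-like classes. Mature oligodendrocyte-like cells held 3011 and 2653 normalised CPM and newly formed cells 2240 and 2782, and these ranges overlap. Astrocyte-like cells held 1537 and 1904, and neuron-like cells 941 and 942. OPC-like cells, at 738 and 703, lay below neurons, and endothelial-like cells held 390 and 383. Microglia-like cells, at 400 and 770, and mural-like cells, at 425 and 603, overlapped OPC-like or fibroblast-like cells, which held 561 and 451, so that the low classes cannot be ordered by these values. Scaled by total UMIs in place of TMM, newly formed cells held 2212 and 2671, mature cells 2083 and 1884, astrocyte-like cells 1506 and 1842, OPC-like cells 903 and 864, microglia-like cells 317 and 851, endothelial-like cells 348 and 329 and neuron-like cells 1041 and 1061 CPM, so the later lineage and astrocytes stayed above neurons and progenitors below them.

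**Figure D2:**
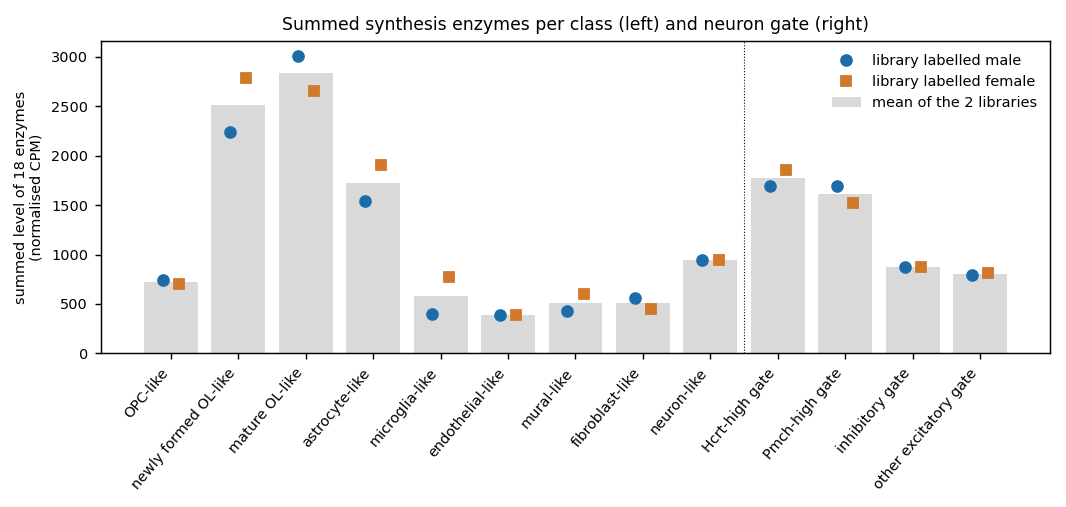
Summed level of the 18 synthesis enzymes in normalised CPM, for 9 classes left of the dotted line and 4 neuron gates right of it, with the mean of 2 libraries as a bar and each library as a point. Mature oligodendrocyte-like cells hold 3011 and 2653 and endothelial-like cells 390 and 383, and the Hcrt-high and Pmch-high gates stand above the inhibitory and other excitatory gates.

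Synthesis enzymes and the handling of lipoproteins moved in opposite directions between progenitors and newly formed oligodendrocyte-like cells. Of 29 genes tested, 12 were higher and 4 lower in newly formed cells, where 11.0% of all genes were called higher and 9.12% lower. All 10 enzymes called, of 17 tested, were higher, and the median log2 fold change of the enzymes was 1.45, against 0.01 over all genes. Insig1 and Npc2 were the other genes called higher, and Apoe, Abca1, Abcg1 and Lrp1, the whole lipoprotein and efflux group, were lower.

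Among the mevalonate steps, Hmgcs1 reached 624 and 1046 normalised CPM in newly formed cells, against 75.2 and 119.8 in OPC-like cells (log2 fold change 3.08 ± 0.30 (SE), edgeR adjusted p = 1.68e-10). Acat2, the thiolase that makes acetoacetyl-CoA, had 159.8 and 156 normalised CPM in newly formed cells, against 37.6 and 38.6 in OPC-like cells (log2 fold change 2.04 ± 0.34, edgeR adjusted p = 8.25e-06). Idi1, which interconverts the isoprenoid building blocks, had 178 and 166 normalised CPM in newly formed cells, against 42.3 and 30.9 in OPC-like cells (log2 fold change 2.24 ± 0.41). For these genes both libraries of the newly formed class lay above both libraries of the progenitors. Mvd, the mevalonate diphosphate decarboxylase, had 72.3 and 80.5 normalised CPM in newly formed cells and 28.2 and 7.73 in OPC-like cells, and Fdps, the farnesyl diphosphate synthase, 90.4 and 99.7 and 47 and 46.4. Both were called higher, while Mvk and Pmvk, the mevalonate kinases, did not pass the test, at 51.2 and 63 and 78.4 and 94.5 normalised CPM in newly formed cells, against 42.3 and 38.6 and 37.6 and 73.4 in OPC-like cells.

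Among the squalene and sterol steps, Lss, the cyclase that closes the sterol rings, had 78.4 and 114 normalised CPM in newly formed cells, against 23.5 and 11.6 in OPC-like cells (log2 fold change 2.55 ± 0.50, edgeR adjusted p = 1.32e-04). Fdft1, the squalene synthase, had 96.5 and 112, against 32.9 and 15.5 (log2 fold change 2.18 ± 0.42). Cyp51, the lanosterol demethylase, had 157 and 164, against 23.5 and 46.4 (log2 fold change 2.16 ± 0.39). Neither library of the newly formed class overlapped the progenitors in these genes. Msmo1, the methylsterol oxidase, had 205 and 257 normalised CPM in newly formed cells and 103 and 69.6 in OPC-like cells, and Sc5d, a sterol desaturase, 90.4 and 87.5 and 32.9 and 15.5, and both were called higher. Sqle, Nsdhl, Hsd17b7, Ebp and Dhcr7 did not pass the test, with log2 fold changes between 0.63 and 1.25.

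Insig1, the sterol-dependent anchor of SREBP proteins and itself one of their known targets, had 159.8 and 143 normalised CPM in newly formed cells, against 37.6 and 30.9 in OPC-like cells (log2 fold change 2.15 ± 0.38, edgeR adjusted p = 3.21e-05). Srebf1, Srebf2 and Scap did not pass the test, so of the sensing group only Insig1 was called in this comparison. Lrp1, an endocytic receptor for apolipoprotein E, fell to 93.4 and 91 normalised CPM in newly formed cells, against 606 and 568 in OPC-like cells (log2 fold change -2.68 ± 0.26, edgeR adjusted p = 6.19e-11). Apoe fell to 220.0 and 135, against 766 and 661 (log2 fold change -2.05 ± 0.27). Both libraries of the newly formed class were below both libraries of the progenitors for Lrp1 and Apoe. The exporters were lower as well, Abca1 with 27.1 and 19.2 normalised CPM in newly formed cells and 75.2 and 58 in OPC-like cells, and Abcg1 with 18.1 and 1.75 and 61.1 and 81.1. Npc2, the soluble carrier of cholesterol in late endosomes, had 241 and 422, against 103 and 119.8 (log2 fold change 1.60 ± 0.34), while its membrane partner Npc1 did not pass the test at 148 and 119 in newly formed and 179 and 158 in OPC-like cells. OPC-like cells carried 14.4% and 16.2% of the summed neuron markers of neuron-like cells and newly formed cells 8.61% and 9.58%, and the part of this difference in the result was not tested.

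Of 43 other genes of the pathway, 37 were tested here, and all 9 that were called were higher in newly formed cells. Osbpl1a, a sterol-binding protein of late endosomes, had 323 and 318 normalised CPM in newly formed cells, against 47 and 19.3 in OPC-like cells (log2 fold change 3.32 ± 0.34, edgeR adjusted p = 5.04e-10). Abca2, a lysosomal transporter, had 256 and 383, against 23.5 and 65.7. Both had both libraries of the newly formed class above the progenitors.

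At a finer clustering, chosen after seeing the data, the newly formed class split into cells led by Bmp4 (56 and 58 cells) and cells led by Tmem2 (18 and 46 cells). Most of the rise of the summed enzymes fell between them, after a smaller rise from progenitors to Bmp4-led cells. From progenitors through Bmp4-led and Tmem2-led to mature cells the 18 enzymes summed to 781 and 753, then 1102 and 1297, then 4274 and 3990, and then 2905 and 2576 normalised CPM in a scaling over these 4 stages. In each library the Tmem2-led cells were highest and the progenitors lowest. Median UMIs per cell were 2276 and 2425 in OPC-like, 3363 and 4192 in Bmp4-led, 6973 and 8341 in Tmem2-led and 4170 and 4643 in mature cells, so depth moves with the stages, and its part in the result was not tested.

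In Tmem2-led against Bmp4-led cells 18 of 26 genes were called higher and 2 lower, where 16.7% of all genes were higher and 13.2% lower, and the 15 enzymes called of 16 tested were all higher. DESeq2 called 13 genes higher, 10 of them enzymes, and 1 lower in this comparison. In Bmp4-led against OPC-like cells only 4 genes were higher and 3 lower, where 13.3% were called in each direction, and 3 of the 16 enzymes were higher. By DESeq2 2 genes were higher and 3 lower there. Against OPC-like cells the Tmem2-led cells were higher in 18 genes and lower in 5, where 22.4% and 21.1% of all genes were called. DESeq2 called 13 higher and 4 lower. Hmgcs1 shows the course with 79.6 and 128 normalised CPM in OPC-like, 208 and 405 in Bmp4-led, 1379 and 1568 in Tmem2-led and 1068 and 936 in mature cells. Tmem2-led cells were above Bmp4-led cells in both libraries (log2 fold change 2.26 ± 0.15 (SE), edgeR adjusted p = 8.02e-31). Cyp51 went through 24.9 and 49.7, 58.7 and 62.9, 334 and 247 and 224 and 198 in the same order of stages, and Idi1 through 44.8 and 33.1, 72.3 and 58.9, 368 and 253 and 179 and 183.

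Mature cells differed from the Tmem2-led cells in 10 genes, 3 higher and 7 lower, where 18.1% of all genes were called higher and 17.1% lower. Acat2, the entry step, peaked in the Tmem2-led cells, at 39.8 and 41.4 normalised CPM in OPC-like, 104 and 98.2 in Bmp4-led, 257 and 203 in Tmem2-led and 59.2 and 49.2 in mature cells (mature against Tmem2-led, log2 fold change -2.06 ± 0.22, edgeR adjusted p = 4.08e-16). Lss followed with 24.9 and 12.4, 40.6 and 43.2, 146 and 171 and 61.3 and 44.5 (log2 fold change -1.69 ± 0.24). Hmgcs1, Mvd, Idi1 and Hsd17b7 were the other enzymes called lower in mature cells, and Srebf2 was lower too. With each sum scaled by its total UMIs in place of TMM, 3 genes were higher and 17 lower, 14 of them enzymes. That scaling also lowered genes outside the enzymes, Npc2 from -0.08 to -0.37 and Scap from 0.58 to 0.29 on the log2 scale. The share of all genes called under it is not given, so these counts are not read as a result about the enzymes. By DESeq2 3 genes were higher and 4 lower, all 4 of them enzymes, so the call of Srebf2 was lost.

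Genes of transport had other courses over the same stages. Lrp1 fell early, with 641 and 608 normalised CPM in OPC-like, 131 and 173 in Bmp4-led, 17.1 and 25.3 in Tmem2-led and 18.3 and 24.6 in mature cells, and was called lower in each of the first 2 steps but not in the last. Npc2 was level at 109 and 128 in OPC-like and 94.8 and 149 in Bmp4-led cells, and stood at 505 and 643 in Tmem2-led and 601 and 525 in mature cells. Abcg1 had 64.6 and 86.9 in OPC-like and 27.1 and 3.93 in Bmp4-led cells, no UMI in Tmem2-led cells and 95.9 and 115 in mature cells. Against a floor of 3 counts per library, 25.7 and 9.50 normalised CPM, the mature cells were at least 3.73-fold higher in the library labelled male and at least 12.1-fold higher in the library labelled female. Npc1 was higher in mature than in Tmem2-led cells, at 312 and 306, against 128 and 95 normalised CPM (log2 fold change 1.54 ± 0.22, edgeR adjusted p = 2.65e-10).

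**Figure D3:**
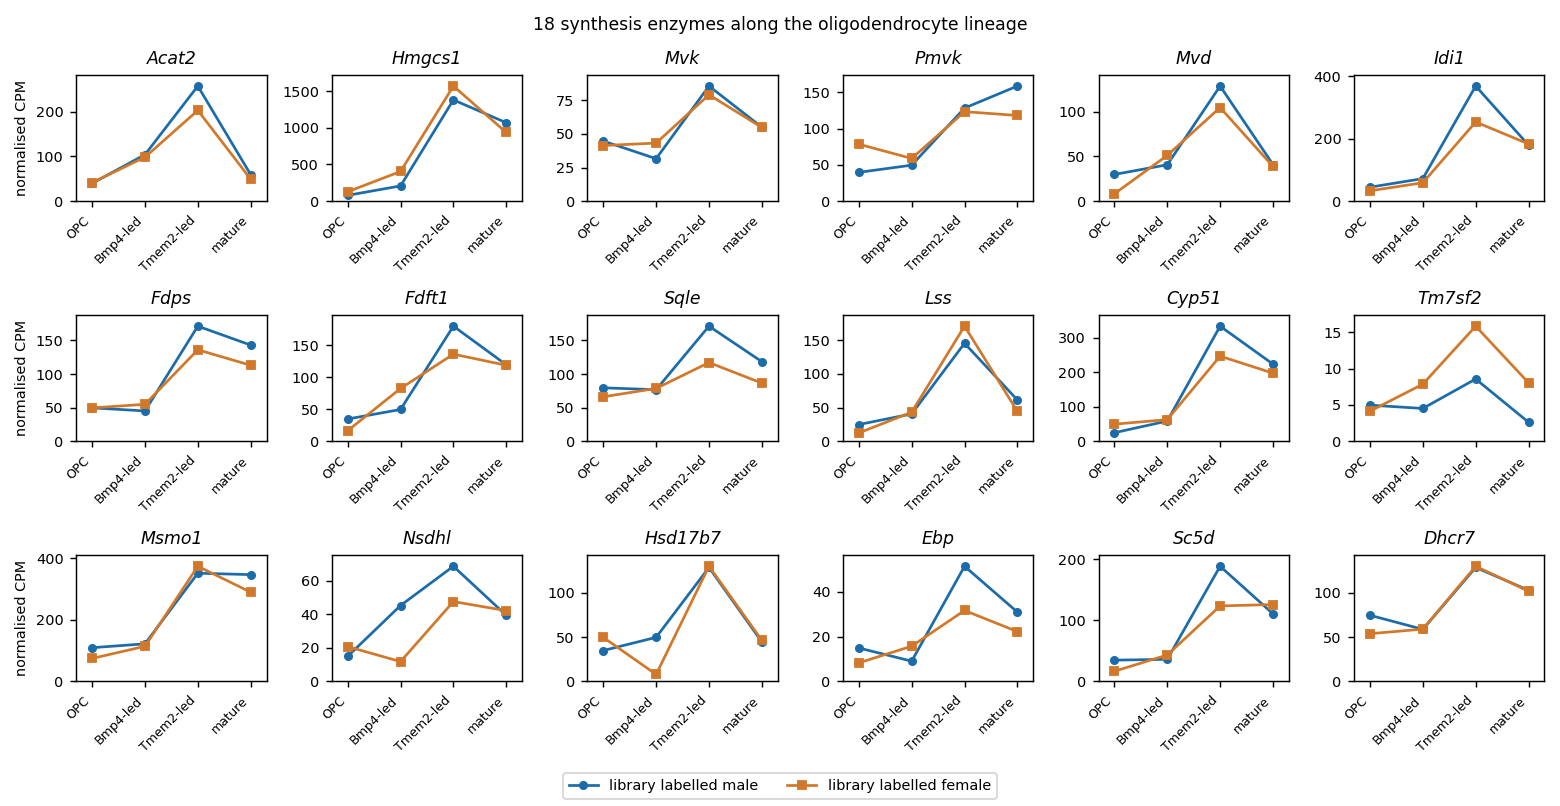
Level of each of the 18 synthesis enzymes in normalised CPM (linear axes from 0, a range of its own per panel) in OPC-like, Bmp4-led, Tmem2-led and mature oligodendrocyte-like cells, 1 line per library. Hmgcs1, Lss, Idi1 and Cyp51 are highest in Tmem2-led cells and lowest in OPC-like cells in both libraries, and Acat2 and Lss drop in mature cells in both libraries.

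Between mature and newly formed oligodendrocyte-like cells most enzymes, like most genes, did not pass the test. Npc1 of the late endosome was higher in mature cells under each scaling. Of 29 genes 13 were called, 7 higher and 6 lower in mature cells, where 25.3% of all genes were called in either direction, and 1 enzyme was higher and 4 lower of 17. This balance depends on the scaling: by total UMIs 2 genes were higher and 7 lower, with a shift of -0.47 in the median of all genes on the log2 scale. Acat2 had 61.4 and 50.7 normalised CPM in mature cells, against 159.8 and 156 in newly formed cells (log2 fold change -1.50 ± 0.20, edgeR adjusted p = 5.92e-08), and no library of one class reached the other. Mvd, Lss and Hsd17b7 were the other enzymes called lower, with log2 fold changes of -0.89 ± 0.25, -0.88 ± 0.25 and -0.68 ± 0.26. Pmvk was the enzyme called higher, with 165 and 122 in mature cells, against 78.4 and 94.5 in newly formed cells.

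Npc1, which exports cholesterol from late endosomes and lysosomes, rose to 324 and 315 normalised CPM in mature cells, against 148 and 119 in newly formed cells (log2 fold change 1.28 ± 0.23, edgeR adjusted p = 2.72e-05). Npc2 had 623 and 540.3, against 241 and 422 (log2 fold change 0.77 ± 0.26). The calls of Npc2 and Pmvk were lost by total UMIs and by DESeq2, and that of Npc1 was kept. Against the Tmem2-led cells alone Npc2 was not called in mature cells (log2 fold change -0.08 ± 0.13). Abcg1 had 99.4 and 118, against 18.1 and 1.75, and no library of the classes overlapped in Npc1, Npc2 and Abcg1. Apoe, Srebf1 and Scap were the other genes called higher, Apoe with 333 and 288 in mature and 220.0 and 135 in newly formed cells, Srebf1 with 58.7 and 40.4 and 30.1 and 21, and Scap with 71.2 and 70.2 and 33.2 and 42. Lrp1 and Cyp46a1 were lower, Lrp1 at 19 and 25.3 in mature cells, against 93.4 and 91 in newly formed cells (log2 fold change -2.04 ± 0.29). Of the other genes of the pathway, 8 of 37 were higher and 2 lower, and by total UMIs 5 were higher and 11 lower. Apod, an apolipoprotein of glia, stood at 1307 and 991 normalised CPM in mature cells and 12.1 and 12.2 in newly formed cells. It is among the markers used to name the mature class, so its level there is no finding.

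Set against progenitors, mature oligodendrocyte-like cells were higher in 17 genes and lower in 4, where 17.2% of all genes were called higher and 16.7% lower, and the 12 enzymes called of 17 were all higher. By total UMIs 8 were higher and 4 lower, with a shift of -0.80 in the median of all genes. Cyp51 had 232 and 204 normalised CPM in mature cells, against 23.5 and 46.4 in OPC-like cells (log2 fold change 2.62 ± 0.35, edgeR adjusted p = 7.66e-08), and Sc5d had 115 and 129.6, against 32.9 and 15.5 (log2 fold change 2.39 ± 0.37). Lrp1 showed the widest gap of the genes called lower, at 19 and 25.3 in mature cells, against 606 and 568 in OPC-like cells (log2 fold change -4.72 ± 0.26, edgeR adjusted p = 2.94e-18). Soat1, the enzyme that esterifies cholesterol for storage, was also called lower, at 13.6 and 13.2 in mature and 37.6 and 30.9 in OPC-like cells. Of the other genes of the pathway 15 of 37 were higher and 4 lower, and by total UMIs 10 were higher and 11 lower.

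Within the mature class 4 clusters could be set side by side, without a test. The cluster led by Klk6, 59 cells in each library, held 3113 and 2588 CPM of the enzymes, relative to all UMIs, and the other 3 clusters held between 1612 and 2106. The Klk6-led cells were highest in both libraries, with median UMIs per cell of 5238 and 5509, inside the range of the other mature clusters.

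Mature oligodendrocyte-like cells exceeded neurons in nearly the whole list. Of 29 genes 25 were higher and 2 lower, where 32.6% of all genes were called higher and 36.0% lower, and 16 of 17 enzymes were higher, with a median log2 fold change of 1.61, against -0.07 over all genes. By total UMIs 19 were higher and 4 lower, with a shift of -0.67 in the median of all genes. Hmgcs1 had 1107 and 964 normalised CPM in mature oligodendrocyte-like cells, against 228 and 225 in neuron-like cells (log2 fold change 2.20 ± 0.23 (SE), edgeR adjusted p = 2.56e-11). Idi1 had 186 and 189, against 43.8 and 51.4, and Fdps 148 and 116, against 42.8 and 37.6. The oligodendrocyte values lay above the neuron values in both libraries for all 3 genes, and Acat2 was the only enzyme tested that was not called.

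Npc1 and Npc2, through which cholesterol leaves late endosomes, had the largest log2 fold changes over neurons among the 29 genes tested. Npc1 had 324 and 315 normalised CPM in mature oligodendrocyte-like cells, against 26.7 and 29.2 in neuron-like cells (log2 fold change 3.51 ± 0.20, edgeR adjusted p = 1.52e-18). Npc2 had 623 and 540.3, against 70.0 and 63.7 (log2 fold change 3.12 ± 0.25). Srebf2 and Scap were called higher under TMM, with log2 fold changes of 0.40 ± 0.18 and 0.61 ± 0.13, but turned to the other sign when scaled by total UMIs, at -0.27 and -0.060. Lrp1 and Cyp46a1 were lower, Cyp46a1, the neuronal hydroxylase through which cholesterol leaves the brain, at 12 and 9.74 in mature oligodendrocyte-like cells, against 68.7 and 64.7 in neuron-like cells (log2 fold change -2.62 ± 0.22, edgeR adjusted p = 9.01e-14). Soat1 did not pass the test, at 13.6 and 13.2 and 12.7 and 14.3. Of 37 other genes of the pathway 19 were higher and 10 lower, and by total UMIs 13 were higher and 17 lower. Apod, a marker used to name the mature class, stood at 1307 and 991 in mature oligodendrocyte-like cells, against 4.62 and 4.47 in neuron-like cells.

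In astrocyte-like cells Apoe, Abca1 and Lrp1 were higher than in neurons and the exporter Abcg1 was lower, and the enzymes called had smaller fold changes than Apoe and Abca1. Of 29 genes 21 were higher and 2 lower than in neuron-like cells, where 23.1% of all genes were called higher and 25.8% lower, and the 11 enzymes called of 17 were all higher, with a median log2 fold change of 0.85, against -0.12 over all genes. By total UMIs 17 genes were higher and 3 lower, with 9 enzymes higher and 1 lower. With at most 10% mitochondrial UMIs, which kept 38 and 35 astrocyte-like cells, 7 genes were higher and 1 lower, and Msmo1 was the only enzyme still called. Apoe had 6704 and 5209 normalised CPM in astrocyte-like cells, against 91.5 and 93.6 in neuron-like cells (log2 fold change 5.98 ± 0.28 (SE), edgeR adjusted p = 2.97e-21). Abca1, the exporter that loads cholesterol onto apolipoproteins, had 233 and 205, against 3.32 and 4.7 (log2 fold change 5.72 ± 0.26). Srebf1, a regulator of fatty acid and sterol synthesis, had 237 and 192, against 8.11 and 9.12 (log2 fold change 4.60 ± 0.21). In these genes every astrocyte value was above every neuron value.

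An Apoe UMI was present in 100% and 99.5% of astrocyte-like cells, and in 51.9% and 56.4% of neuron-like cells, whose median UMI count was 7722 and 8124, against 2260 and 2543 in astrocyte-like cells. After thinning each cell to 2000 UMIs the shares were 100% and 98.9% in astrocyte-like cells and 18.8% and 20.8% in neuron-like cells. The Apoe level of neuron-like cells was 1.36% and 1.80% of that of astrocyte-like cells, and for the 11 astrocyte markers this share had a median of 0.592% and 0.643% and reached 14.5%. Apoe in neurons thus lay above the median marker and within the range of the markers, and how much of it came from RNA of other cells was not tested.

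Soat1 had 153 and 145 normalised CPM in astrocyte-like cells, against 12.7 and 14.3 in neuron-like cells (log2 fold change 3.44 ± 0.23, edgeR adjusted p = 4.53e-16), and Lrp1 had 492 and 542, against 131 and 133 (log2 fold change 1.97 ± 0.20). Among the enzymes Msmo1 had 335 and 358, against 106 and 109 (log2 fold change 1.69 ± 0.21), and Dhcr7, a last reductase of the pathway, 120.2 and 132, against 38.3 and 39.6 (log2 fold change 1.70 ± 0.20). Hmgcs1 did not pass the test at 251 and 351 and 228 and 225, nor did Acat2, Pmvk, Lss, Cyp51 and Ebp. Insig1, Srebf2 and Scap were called higher, as were Npc1 and Npc2, and Abcg1 and Cyp46a1 were called lower. With at most 10% mitochondrial UMIs the calls of Insig1, Srebf2, Scap, Npc2 and Dhcr7 were lost, and Srebf2 turned to -0.29 on the log2 scale. Astrocyte-like cells carried 10.7% and 7.76% of the summed neuron markers of neuron-like cells, whose part in the values was not tested. Of 37 other genes of the pathway 16 were higher and 5 lower, by total UMIs 14 and 8, and Lcat, which esterifies cholesterol on lipoproteins, had 113 and 105, against 0.272 and 0.639.

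Set against mature oligodendrocyte-like cells, astrocyte-like cells were higher in 5 genes and lower in 9, where 21.8% of all genes were called higher and 20.1% lower, and the 6 enzymes called of 17 were all lower. By total UMIs the balance was 10 higher and 5 lower, with 3 enzymes higher and 2 lower and a shift of 0.47 in the median of all genes, so the direction of the enzymes as a group depends on the scaling. Hmgcs1 and Cyp51 were lower in astrocyte-like cells, Hmgcs1 at 251 and 351 normalised CPM, against 1107 and 964 in mature oligodendrocyte-like cells (log2 fold change -1.80 ± 0.25, edgeR adjusted p = 6.38e-08). Npc1 was lower at 117 and 74.4, against 324 and 315, and Abcg1 at 7.28 and 4.13, against 99.4 and 118 (log2 fold change -4.36 ± 0.48). Lrp1 was higher at 492 and 542, against 19 and 25.3 (log2 fold change 4.54 ± 0.25), and Apoe, Abca1, Srebf1 and Soat1 were the other genes called higher. Msmo1, Dhcr7 and Insig1 did not pass the test, at log2 fold changes of 0.08, 0.27 and 0.00.

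**Figure D4:**
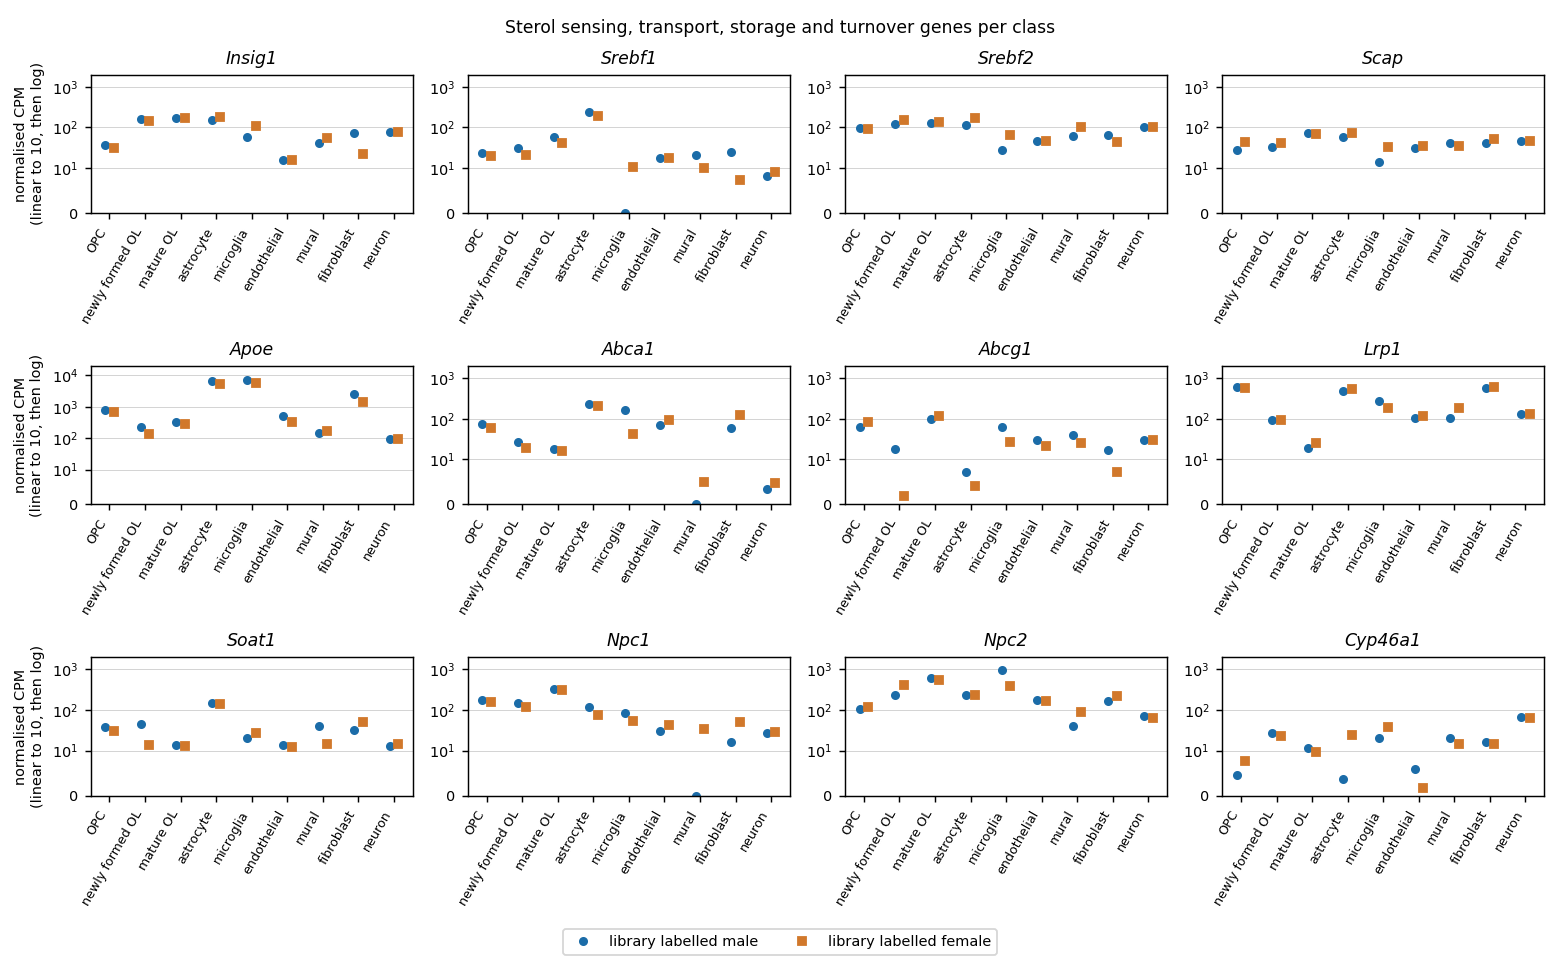
Level of the 12 genes of sterol sensing, transport, storage and turnover in 9 classes, in normalised CPM on an axis that is linear to 10 and logarithmic above, 1 point per library. Apoe reaches its highest values in astrocyte-like and microglia-like cells, Npc1 and Abcg1 theirs in mature oligodendrocyte-like cells, and Lrp1 is lowest in mature oligodendrocyte-like cells.

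In microglia-like cells Apoe, Abca1, Lrp1, Npc1 and Npc2 were higher than in neurons, while most enzymes did not pass the test. Of 29 genes 5 were higher and 4 lower than in neuron-like cells, where 16.4% of all genes were called higher and 17.8% lower, and 2 of 17 enzymes, Hmgcs1 and Msmo1, were lower. By total UMIs 4 were higher and 8 lower, and by DESeq2 6 were higher and 1 lower, with 1 enzyme in each direction. Abcg1, Soat1 and the other 15 enzymes tested did not pass, among them Ebp, a sterol isomerase, at 56.2 and 16 in microglia-like and 15.9 and 12.8 in neuron-like cells. Apoe had 7109 and 5692 normalised CPM in microglia-like cells, against 91.5 and 93.6 in neuron-like cells (log2 fold change 6.09 ± 0.28 (SE), edgeR adjusted p = 5.05e-21). Npc2 had 984 and 390.2, against 70.0 and 63.7 (log2 fold change 3.32 ± 0.28), and Abca1 169 and 42.8, against 3.32 and 4.7 (log2 fold change 4.58 ± 0.49). Lrp1 and Npc1 were the other genes called higher, at 267 and 182 and 84.3 and 53.4, and Srebf2 and Cyp46a1 were lower. The microglia-like libraries lay above both neuron libraries in all 5.

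The microglia-like libraries differed from each other. The summed microglia markers stood at 41947 normalised CPM in the library labelled male and 11010 in the library labelled female, and the summed neuron markers at 17.1% and 43.4% of their level in neuron-like cells. Hmgcs1 had 49.2 and 155 normalised CPM in these cells, against 228 and 225 in neuron-like cells (log2 fold change -1.12 ± 0.33, edgeR adjusted p = 0.00745). Without the 25% of cells richest in markers of other classes 4 genes were higher and 9 lower, 7 of them enzymes, and Apoe stood at 4768 and 10777 and Npc2 at 911 and 684 in microglia-like cells. The calls of Npc1 as higher and of Msmo1 as lower were lost there, with Npc1 at 68.7 and 30.6. The share of all genes called in that setting is not given. Of 37 other genes of the pathway 6 were higher and 8 lower than in neuron-like cells, and by total UMIs 6 were higher and 13 lower.

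Most enzymes were lower in endothelial-like cells than in neurons. Of 29 genes 17 were lower and 5 higher than in neuron-like cells, where 30.1% of all genes were called lower and 34.4% higher, and 14 of 17 enzymes were lower, with a median log2 fold change of -1.37, against 0.07 over all genes. By total UMIs 20 were lower and 3 higher. Hmgcs1 had 62.8 and 65.7 normalised CPM in endothelial-like cells, against 228 and 225 in neuron-like cells (log2 fold change -1.83 ± 0.28 (SE), edgeR adjusted p = 3.65e-07). Fdft1 had 19.6 and 10.6, against 79.4 and 74.8 (log2 fold change -2.36 ± 0.31), Sqle, the squalene epoxidase, 9.81 and 16, against 64.6 and 63.6, and Insig1 15.7 and 16, against 76.7 and 75. Both endothelial libraries lay below both neuron libraries in these genes. Mvk was the enzyme called higher, at 25.5 and 30.2, against 16.5 and 16.1, and Nsdhl and Ebp did not pass the test.

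Of the 7 genes of lipoprotein handling, storage and late endosomes, Apoe, Abca1 and Npc2 were higher in endothelial-like cells. Apoe had 524 and 321 normalised CPM, against 91.5 and 93.6 in neuron-like cells (log2 fold change 2.15 ± 0.24, edgeR adjusted p = 4.27e-10), Abca1 70.6 and 94, against 3.32 and 4.7 (log2 fold change 4.34 ± 0.31), and Npc2 181 and 163, against 70.0 and 63.7. Srebf1, of the sensing group, was called higher as well, and Abcg1, Lrp1, Soat1, Npc1 and Scap did not pass the test. Of 37 other genes of the pathway 14 were higher and 12 lower, by total UMIs 13 and 18, and Scarb1, a receptor for high-density lipoprotein, had 153 and 183, against 28.2 and 32.3 (log2 fold change 2.47 ± 0.17). At the finer clustering 113 of the 293 endothelial-like cells fell into a cluster led by Rgs5 and Pdgfrb, genes of mural cells, and 33 into one led by hemoglobin genes, both left unnamed, and their part in these values was not tested.

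Fibroblast-like cells, 23 and 33 in number, were higher than neuron-like cells in 5 genes and lower in 5, where 16.5% of all genes were called higher and 18.1% lower, and the 4 enzymes called of 17 were all lower. Apoe had 2558 and 1405 normalised CPM in fibroblast-like cells, against 91.5 and 93.6 in neuron-like cells (log2 fold change 4.37 ± 0.26, edgeR adjusted p = 3.25e-17), Lrp1 578 and 619, against 131 and 133 (log2 fold change 2.18 ± 0.23), and Abca1 57.8 and 124, against 3.32 and 4.7. Both fibroblast libraries were above both neuron libraries in these 3 genes. Soat1 and Npc2 were the other genes called higher, and Acat2, Hmgcs1, Fdft1, Msmo1 and Cyp46a1 those called lower. Mural-like cells, with 11 and 35 cells, had 0 genes called higher and 2 lower, Hmgcs1 and Cyp46a1, where 8.73% of all genes were called higher and 8.62% lower. At an unadjusted p under 0.05, 5 genes passed in edgeR there, by total UMIs 1 was higher and 1 lower, and by DESeq2 1 gene was called.

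Neurons were gated by their own transcripts. Hcrt-high neurons (83 and 83 cells) took 0.3% or more of their UMIs from the orexin gene Hcrt. Pmch-high neurons (85 and 61) took as much from the melanin-concentrating hormone gene Pmch. Both gates were set without regard to Slc32a1 or Slc17a6, and cells past both limits were left out. Of the neuron-like cells below both limits, inhibitory cells held Slc32a1 and no Slc17a6 UMI (984 and 1108 cells). The other excitatory neurons held the reverse (601 and 690). The other excitatory neurons were the shared reference of all 3 comparisons, fitted over 12266 genes with all 30 genes tested. Inhibitory and other excitatory neurons were close: 1 gene was higher and 0 lower, where 3.67% of all genes were called higher and 4.06% lower, and 8 genes passed at an unadjusted p under 0.05. The gene called was Insig1, at 80.3 and 75.2 normalised CPM in inhibitory neurons, against 66 and 64.7 in other excitatory neurons (log2 fold change 0.25 ± 0.07 (SE), edgeR adjusted p = 0.0328). By DESeq2 this call was lost and 0 genes were called.

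Hcrt-high neurons had more of most synthesis enzymes than other excitatory neurons. Of 30 genes 17 were higher and 4 lower, where 21.5% of all genes were called higher and 19.2% lower, and the 13 enzymes called of 18 were all higher. The 18 enzymes summed to 1691 and 1851 normalised CPM in Hcrt-high neurons, against 796 and 816 in other excitatory neurons. Msmo1 had 315 and 357 normalised CPM in Hcrt-high neurons, against 80.6 and 89.7 in other excitatory neurons (log2 fold change 1.98 ± 0.09 (SE), edgeR adjusted p = 2.99e-15). Hmgcs1 had 436 and 523, against 181 and 189.7 (log2 fold change 1.38 ± 0.09), and Cyp51 162 and 146, against 59.8 and 59.1 (log2 fold change 1.37 ± 0.11). Both Hcrt-high libraries lay above both libraries of other excitatory neurons in these genes. Sqle, Idi1, Nsdhl and Fdft1 followed with log2 fold changes of 1.29 ± 0.12, 1.27 ± 0.13, 1.16 ± 0.22 and 1.04 ± 0.11, and Pmvk, Tm7sf2, Hsd17b7, Ebp and Dhcr7 did not pass the test.

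Outside the enzymes, Insig1, Srebf2, Npc1 and Npc2 were higher in Hcrt-high neurons. Npc2 had 164 and 117 normalised CPM, against 57.7 and 51.2 in other excitatory neurons (log2 fold change 1.35 ± 0.12, edgeR adjusted p = 1.50e-09), and Npc1 45.5 and 41.5, against 25.6 and 26.4 (log2 fold change 0.73 ± 0.18). Srebf2, the SREBP most tied to cholesterol, had 155 and 145, against 90.9 and 89.8, while its escort Scap was lower at 28.1 and 37.5, against 45.4 and 47.6. Cyp46a1 and Abcg1 were lower too, Cyp46a1 at 47.4 and 51.9, against 74.8 and 63.9, and Abca1 was called lower on 1 and 0 UMIs. Of 34 other genes of the pathway 14 were higher and 7 lower, and by total UMIs 9 were higher and 9 lower.

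Pmch-high neurons were higher in 19 of 30 genes and lower in 3 than the same other excitatory neurons, where 19.2% of all genes were called higher and 17.0% lower, and the 16 enzymes called of 18 were all higher. The enzymes summed to 1689 and 1525 normalised CPM in Pmch-high neurons, against 796 and 816 in other excitatory neurons. Hmgcs1 had 596 and 507 normalised CPM in Pmch-high neurons, against 181 and 189.7 in other excitatory neurons (log2 fold change 1.58 ± 0.08 (SE), edgeR adjusted p = 6.40e-14). Fdft1 had 140.3 and 129, against 62.2 and 64.5 (log2 fold change 1.08 ± 0.11), and Msmo1 167 and 141, against 80.6 and 89.7 (log2 fold change 0.87 ± 0.11). In these genes both Pmch-high libraries were above both libraries of other excitatory neurons. Nsdhl, Mvk, Ebp and Hsd17b7 had log2 fold changes of 1.55 ± 0.21, 1.32 ± 0.22, 1.29 ± 0.23 and 1.26 ± 0.23, and Lss and Tm7sf2 did not pass the test.

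Insig1, Srebf2 and Npc2 were the other genes called higher in Pmch-high neurons, and Lrp1, Npc1 and Cyp46a1 those called lower. Npc1 had 11.7 and 20.5 normalised CPM in Pmch-high neurons, against 25.6 and 26.4 in other excitatory neurons (log2 fold change -0.74 ± 0.24, edgeR adjusted p = 0.0182), the other direction from the one in Hcrt-high neurons, although the difference between the gates was not tested. Of 34 other genes of the pathway 10 were higher and 3 lower, by total UMIs 9 and 11, and Stard4, a cytosolic sterol carrier, stood at 101 and 80.9 in Pmch-high neurons, against 22.8 and 22.3 in other excitatory neurons (log2 fold change 2.03 ± 0.15, edgeR adjusted p = 3.89e-11). By total UMIs the balance was 14 higher and 6 lower in Hcrt-high and 13 higher and 3 lower in Pmch-high neurons, with shifts of -0.26 and -0.27 in the median of all genes. By DESeq2 14 were higher and 0 lower in Hcrt-high and 17 higher and 1 lower in Pmch-high neurons.

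**Figure D5:**
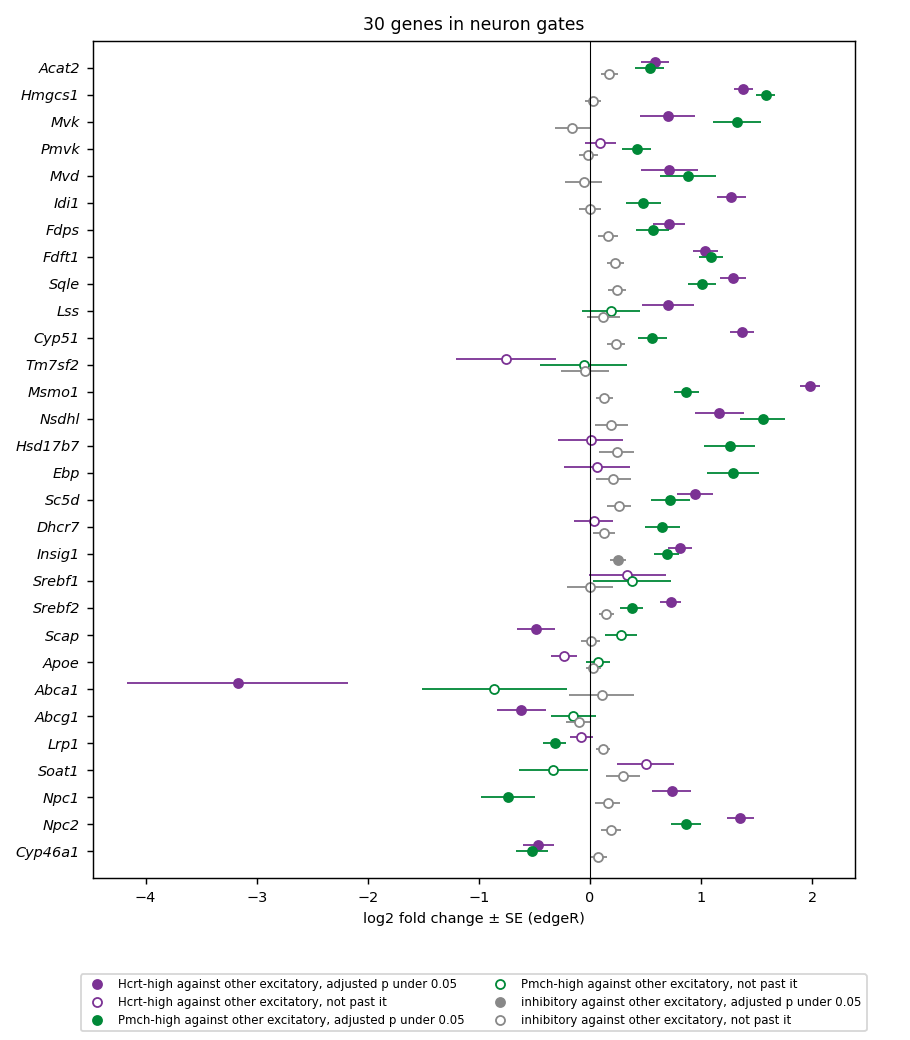
Log2 fold change with its standard error (edgeR) of the 30 genes in Hcrt-high, Pmch-high and inhibitory neurons, each against other excitatory neurons, with filled points at an adjusted p under 0.05. Most enzymes lie right of 0 in the Hcrt-high and Pmch-high comparisons and near 0 in the inhibitory one, Msmo1 is the farthest right among Hcrt-high enzymes, and the wide bar of Abca1 in Hcrt-high neurons rests on 1 and 0 UMIs.

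The gated cells were deeper than the rest. Median UMIs were 16101 and 18593 per cell in Hcrt-high neurons and 14237 and 12947 in Pmch-high neurons, against 7811 and 8097 in other excitatory neurons. Among cells of 10000 to 25000 UMIs, a range chosen after seeing the data, the enzymes summed to 1549 and 1694 CPM of all UMIs in Hcrt-high, 1345 and 1294 in Pmch-high, 968 and 966 in inhibitory and 837 and 942 in other excitatory neurons. The Hcrt-high and Pmch-high values lay above the other gates in both libraries there. The range did not match the depth of the gates. Its median UMIs were 18244 and 19153 in Hcrt-high, 16096 and 13254 in Pmch-high (35 and 20 cells) and 12107 and 11926 in other excitatory neurons. With each cell thinned to 2000 UMIs, 7 genes were higher in Hcrt-high and 3 in Pmch-high neurons, and the median log2 fold change of the 17 enzymes tested was 0.83 and 0.68, with 13 and 16 of them above 0.

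The 2 libraries were compared at a limit of 1.5-fold where a class held at least 50 UMIs of the gene over both. In mature oligodendrocyte-like cells 0 of 28 genes and in neuron-like cells 0 of 30 genes differed by more than that, where 5.63% and 3.52% of all genes did. In newly formed oligodendrocyte-like cells 3 of 21 did, Apoe being higher and Hmgcs1 and Npc2 lower in the library labelled male, where 15.3% of all genes did. Tmem2-led cells were 18 of 74 newly formed cells in the library labelled male and 46 of 104 in the library labelled female. The part of this mix in the difference was not tested. In astrocyte-like cells Npc1 was higher and Pmvk, Idi1 and Cyp51 lower in the library labelled male, 4 of 20 genes, where 9.85% did. In endothelial-like cells 2 of 7 did, Pmvk and Apoe, where 14.0% of all genes did, and in Pmch-high neurons 3 of 23, Nsdhl, Mvk and Idi1, where 6.28% did. In microglia-like cells 1 of 3 did, Npc2, where 66.7% of all genes did, and in fibroblast-like cells 1 of 3, Apoe, where 21.1% did. These differences have 1 pool on each side and no test.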

How the data were processed

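The authors' deposited matrices hold raw UMI counts, 1 matrix per library with no scaling. Cell Ranger 2.2.0 and the build mm10/GRCm38 are named in the submitters' processing notes. Which annotation release was used, how strand was treated and how cells were called is not given in the sources used here. Barcodes with at least 500 genes and at most 20% mitochondrial UMIs were kept, which left out 163 per library, and the 90 and 110 cells scoring highest in Scrublet (the rate rises with the number of barcodes) were left out as doublets. Scrublet's own threshold would have marked 48 and 12. Cells were clustered with scanpy 1.11.5 (2000 variable genes without the 30 genes described, 30 components, 15 neighbours, Leiden at resolution 1, leidenalg 0.10.2), and clusters were named from marker lists. The 30 genes, the marker lists and the other pathway genes were chosen with earlier results of these data known.

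UMI counts were summed per library and group over at least 10 cells. edgeR 4.0.16 (R 4.3.3) fitted quasi-likelihood models after filterByExpr and TMM, with the library as a block: 18 sums of 9 classes (9693 genes, 8 residual degrees of freedom), 8 sums of 4 gates (12266 genes, 3) and 8 sums of 4 stages (5827 genes, 3). The other pathway genes named are, per comparison, at most 3 in each direction with the largest fold change and 50 or more normalised CPM. Values of some of them are not reported here. DESeq2 1.42.0, total scaling, thinning to 2000 UMIs and further alternatives are compared in the closing section. On simulated counts the class fit called 35 of 50 genes changed 4-fold and 7 of 50 changed 2-fold between newly formed and OPC-like sums, and 3 of 7432 unchanged ones, so changes of that size in small classes can be missed. The simulation gave unchanged genes 1 mean share over all classes and all genes 1 common spread, unlike the data. In it 7622 genes passed the filter, and changed genes that did not pass counted as missed. Its rates need not hold for the data. Positions came from GENCODE M21, which held 28339 of 28692 gene identifiers and all 30 genes. Replicates are 2 pools and the library is a block, so p-values and SE rest on how far differences between groups vary between the pools. This spread is moderated by a prior shared over genes, with 31.2, 21.8 and 166 prior degrees of freedom for classes, gates and stages. The p-values do not measure the spread between animals. Intervals of counts cover counting error only.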

Additional observations from a re-analysis of the deposited data

Results flagged for a closer look

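For 2 results the libraries moved in opposite directions, and the difference between them was not tested. Sqle in astrocyte-like against mature oligodendrocyte-like cells had a log2 fold change of -0.41 in the library labelled male and 0.31 in the library labelled female. Srebf1 in inhibitory against other excitatory neurons had -0.43 in the library labelled male and 0.33 in the library labelled female.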

How the results depend on the processing

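Of 2075 gene-level values recomputed for 160 called results, 1914 were counted as unchanged, 156 kept the direction only and 5 reversed. The 1914 include 320 values from fits with a library left out, which have no side of the threshold and were judged by direction alone. The rest of the 1914 kept their direction and side of the threshold. The cause of the changes was not tested. The reversed values were, scaled by total UMIs, Srebf2 at -0.27 and Scap at -0.060 in mature oligodendrocyte-like against neuron-like cells; with at most 10% mitochondrial UMIs, Srebf2 at -0.29 in astrocyte-like against neuron-like cells; and with cells thinned to 2000 UMIs, Insig1 at -0.00043 in inhibitory and Srebf2 at -0.45 in Pmch-high neurons.

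Counts of called genes moved by more than 1.5 times in these cases. With at most 10% mitochondrial UMIs they were 7 in place of 13 for mature against newly formed cells, 8 in place of 23 for astrocyte-like, 4 in place of 10 for fibroblast-like and 0 in place of 1 for inhibitory cells, and mural-like cells were too few. By total UMIs they were 12 in place of 21 for mature against OPC-like cells and 20 in place of 10 for mature against Tmem2-led cells. Thinned to 2000 UMIs they were 7 in place of 21 for Hcrt-high, 3 in place of 22 for Pmch-high and 0 for inhibitory neurons. With the 2 groups fitted alone they were 3 in place of 9 for microglia-like, 0 in place of 2 for mural-like and 4 for inhibitory cells. DESeq2 gave 1 for mural-like and 0 for inhibitory cells, keeping doublets gave 1 for mural-like cells, and leaving out the 25% of cells richest in other markers gave 0 for inhibitory cells.

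Groups of 1 pool share its cells, so the library is a replicate block in all fits. Without the block the counts were 1 for mural-like and 0 for inhibitory cells, and the other counts moved by less than 1.5 times. With 1 library left out, 320 of 320 values kept their direction, and no count could be made, as no residual degree of freedom remains. The results were called in a fit of these same 2 libraries, which favours a shared direction beforehand. The 320 values are therefore no independent check.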
